A study of Mus musculus with 7 samples.

Results

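The 84 genes described here start between 170 and 180 Mb on mouse chromosome 1 (build mm10) and had 10 or more counts in at least 3 of the 7 libraries. The annotation lists 270 genes in this interval, of which 101 had no count in any library, 79 had counts but fell below that minimum, and 6 were left out by symbol, among them Pcp4l1, Rgs7, Kcnj9, Kcnj10 and Kif26b. Of the 84, 71 are protein-coding genes, 10 are pseudogenes and 3 are other transcripts. The interval was chosen by its results in the comparison of the genotypes, so its counts and fold changes in that comparison are a description and no test of the interval was run. The 80 genes that passed the filter on low counts were tested within the fit of all 17621 genes. The 4 that did not pass it include Gm6345, Fcer1g and Atp1a4.

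This end of mouse chromosome 1 holds a dense set of unrelated genes. Among them are clusters for receptors that bind the Fc part of immunoglobulins, for SLAM receptors of immune cells and for the interferon-inducible IFI200 proteins, and these clusters differ in gene content and sequence between inbred mouse strains. A gene can therefore differ between 2 groups of mice through the mutation under study or through DNA of another strain, among other sources. Telling the mutation and strain-derived DNA apart takes the sequence variants of each mouse. The counts used here hold none, so whether the genes that were higher lie in a block of strain-derived DNA was not tested, and what follows gives their levels and positions.

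The libraries came from the cerebella of 3 wild-type mice (Rpl22fl/+;PCP2-Cre) and 4 mutant mice (Rpl22fl/+;PCP2-Cre;nm3888-/-), 1 mouse per library, all 3 weeks old. In both genotypes PCP2-Cre, which is active in Purkinje cells, switches on an HA-tagged copy of the ribosomal protein RPL22, and the RNA bound to tagged ribosomes was recovered and sequenced (RiboTag). The nm3888 mutation is a retrotransposon insertion in an intron of Rreb1, which lies on chromosome 13 and encodes a transcription factor with zinc fingers. It arose in a nonobese diabetic (NOD) stock that also carried 129P2 DNA and was moved by repeated crosses to C57BL/6J, and the Rpl22 line was itself made with 129 DNA, so stretches of NOD or 129 DNA can differ between mice. The methods state that littermates were compared where possible. Library names form 2 series. The first holds wild types 1 and 2 and mutants 1 and 2, all female, and the second holds wild type 3, a female, and mutants 3 and 4, both male, so that sex and genotype cannot be told apart in the second series. For Rreb1 itself the log2 fold change was 0.20 (SE 0.23, edgeR adjusted p = 0.640). The paper reports loss of the predominant Rreb1 transcript in mutant brains on a Northern blot. It also reports no signal in the mutant brain with a probe for all Rreb1 transcripts. By RT-PCR, the paper found variant V7 markedly lower in mutant cerebella and other detected long variants at levels comparable to wild type. The count used here is of the whole gene and does not separate its transcripts. It showed no such fall, and the reason was not tested. This count therefore does not check the labels.

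Total counts ranged from 18023017 to 107937386 per library, and intervals given for counts cover counting error only. Levels are in CPM, the counts of a gene per 1000000 counts of the library after TMM normalization, and differences are log2 fold changes of mutant over wild type, so that positive values are higher in the mutant. Of the 15 Purkinje cell markers, all had counts and none was called, and their summed level was 42630 to 52740 CPM in the wild types and 39940 to 58340 CPM in the mutants. A fall in the number of cells and a fall in RNA per cell cannot be told apart in such libraries. Markers of other cell types had median log2 fold changes above 0, at 0.79 for blood cells, 0.64 for microglia, 0.63 for the astrocyte and Bergmann glia list, 0.51 for both granule cells and oligodendrocytes, 0.41 for interneurons of the cerebellum and 0.31 for the endothelial and pericyte list, against 0.096 for Purkinje cells and 0.027 for all genes tested. Their part in the results below was not tested.

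In the mutants, 10 of the 80 tested genes of the interval were called higher (12.5%) and 4 were called lower (5.0%), at an edgeR adjusted p under 0.05 with the library series as a term. Across all genes tested, 455 (2.58%) were called higher and 1049 (5.95%) were called lower. The genes called higher were Apoa2, Mndal, Vsig8, Cfap126, Fcgr3, B230369F24Rik, Uap1, Klhdc9, Nit1 and Tomm40l, and those called lower include Nectin4 and Pea15a. The median log2 fold change of the 80 genes was 0.13, and 49 of them (61.3%) had a positive value, where 53.4% of all genes tested did. The other 66 were not called and ranged from -1.04 to 1.60 on the log2 scale, 56 of them within 0.5 of 0. Since the interval was chosen on this same contrast, nothing is read from its share against that of all genes. With a replicate block, the number in the titles taking the place of the series, which leaves mutant 4 out of the genotype term, 6 genes of the interval were called higher and 2 lower, and 241 and 571 among all genes. With sex as the term instead, 1 gene of the interval (Apoa2) was called higher and none lower, and 17 and 85 among all genes. Without wild type 3, 4 were called higher (Apoa2, Vsig8, Cfap126 and B230369F24Rik) and none lower, and 173 and 426 among all genes. That fit compares the genotypes within the first series only, since mutants 3 and 4 then have no wild type of their series.

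The largest difference was in Apoa2, which encodes apolipoprotein A-II, a protein of plasma lipoproteins made mainly by the liver. Its 3 wild-type libraries held 0, 0 and 1 counts, and its 4 mutant libraries held 24, 73, 165 and 186 counts. In CPM these were 0, 0 and 0.00975 in the wild types and 1.26, 2.18, 2.78 and 4.12 in the mutants. Every mutant library was above every wild-type library, in both series. Pooled over libraries, the level was 0.00653 CPM in the wild types, resting on that single count, and 2.85 CPM in the mutants, a ratio of 436.3 with a 95% counting interval of 77.9 to 17270. Apoa2 was called higher in the fit of the first series alone, with 2 mice of each genotype (edgeR adjusted p = 0.0100), in each of the 7 fits without 1 library (0.000240 to 0.00517) and in all 18 alternative fits. These 18 include the others named, and they share libraries, so they are not separate tests.

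Vsig8 and Cfap126 also had low wild-type levels and no overlap between the genotypes. Vsig8, which encodes a membrane protein with immunoglobulin-like domains, was at 0.356, 0.593 and 0.283 CPM in wild types 1 to 3 and at 2.41, 3.31, 2.17 and 2.28 CPM in mutants 1 to 4. Its lowest mutant was above its highest wild type, and the fitted fold was 6.80 (log2 2.77, SE 0.27, edgeR adjusted p = 4.9e-04). Cfap126, which encodes a protein of the basal body and axoneme of motile cilia, was at 0.119, 0.119 and 0.205 CPM in the wild types and at 0.786, 0.805, 1.23 and 1.19 CPM in the mutants. The groups did not overlap, and the fitted fold was 6.12 (log2 2.61, SE 0.28, edgeR adjusted p = 7.4e-04). Both genes were called in each of the 7 fits without 1 library, with adjusted p of 0.00144 to 0.00695 for Vsig8 and 0.00229 to 0.0176 for Cfap126, and both were called in the first series alone (0.0124 and 0.0296).

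Uap1 and B230369F24Rik changed from higher levels. Uap1 encodes the enzyme that makes UDP-N-acetylglucosamine, the sugar donor for protein glycosylation. It was at 11.7 and 12.0 CPM in the wild types of the first series against 17.7 and 25.2 CPM in its mutants, and at 18.9 CPM in the wild type of the second series against 35.6 and 30.6 CPM in its mutants. Mutants were above wild types within each series, while wild type 3 was above mutant 1 across them. The fold was 1.79 (log2 0.84, SE 0.14, edgeR adjusted p = 0.00780), and the call was lost without wild type 3 (0.0546). B230369F24Rik, annotated as an antisense transcript without a known product, was at 6.88, 6.09 and 5.21 CPM in the wild types and at 12.6, 13.2, 9.25 and 10.7 CPM in the mutants, with no overlap. Its fold was 1.96 (log2 0.97, SE 0.13, edgeR adjusted p = 0.00218), and it was called in each of the 7 fits without 1 library (0.00386 to 0.0203). Counting was by strand, per the file headers. B230369F24Rik lies next to Cox20 and Hnrnpu, whose log2 fold changes of 0.13 and 0.14 were not called (adjusted p = 0.822 and 0.615).

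Nit1, Tomm40l and Klhdc9 showed small rises. Nit1, which encodes an amidase that clears deaminated glutathione, was at 19.6, 20.8 and 27.2 CPM in the wild types and at 25.5, 28.9, 33.7 and 36.0 CPM in the mutants (log2 0.40, SE 0.10, edgeR adjusted p = 0.0386). Tomm40l, which encodes a mitochondrial outer membrane protein related to the import channel TOMM40, was at 35.3, 38.3 and 63.5 CPM in the wild types and at 48.9, 50.8, 73.6 and 81.3 CPM in the mutants (log2 0.38, SE 0.09, edgeR adjusted p = 0.0388). In both genes the groups overlapped across the series, through wild type 3, and not within them. Klhdc9, which encodes a kelch repeat protein, was at 1.34, 1.62 and 1.53 CPM in the wild types and at 2.31, 2.56, 2.53 and 2.90 CPM in the mutants, with no overlap (log2 0.77, SE 0.19, edgeR adjusted p = 0.0407). These calls lie near the threshold. Nit1 was called without mutant 1 or mutant 3 and lost without each of the other 5 libraries, up to an adjusted p of 0.156 without wild type 3. Tomm40l was called without mutant 3 and lost without each of the other 6 libraries (up to 0.147), and Klhdc9 was lost in each of the 7 fits without 1 library (0.0517 to 0.231).

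Fcgr3 and Mndal are the called members of the immune gene clusters. Fcgr3, an activating receptor for immunoglobulin G on myeloid cells, was at 0.237, 0.277 and 0.205 CPM in the wild types and at 0.419, 0.775, 0.927 and 0.797 CPM in the mutants, with no overlap. Its fold was 3.22 (log2 1.69, SE 0.35, edgeR adjusted p = 0.0198), and the call was lost without mutant 2 (0.0728), wild type 1 (0.0552), wild type 2 (0.0526) or wild type 3 (0.247). Mndal, of the IFI200 family, held 2, 1 and 5 counts in the wild types and 6, 25, 20 and 57 counts in the mutants. In CPM it was at 0.0790, 0.0396 and 0.0488 against 0.314, 0.745, 0.337 and 1.26, with no overlap (log2 3.64, SE 0.72, edgeR adjusted p = 0.0164). Its call was lost without mutant 2 (0.0610), wild type 2 (0.0521) or wild type 3 (0.189), and it did not pass the filter in the first series alone. IFI200 genes are close copies of one another, so the split of reads between Mndal and its relatives is uncertain.

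Other members of these clusters had few counts. Ifi203, of the IFI200 family, was at 0.435, 0.198 and 0.146 CPM in the wild types and at 0.210, 1.10, 0.505 and 0.774 CPM in the mutants, where mutant 1 lay within the wild-type range (log2 1.60, SE 0.55, edgeR adjusted p = 0.119). Below the count minimum, Ifi202b held 0, 1 and 2 counts in the wild types and none in the mutants, and Aim2, a cytosolic DNA sensor, held 5, 1 and 7 counts against 3, 5, 10 and 16. Also below it, the Fc receptor gene Fcrla held 0, 0 and 4 counts in the wild types and none in the mutants. Fcrlb held 0, 2 and 12 counts against 1, 2, 9 and 9, and Fcgr4 held none against 1, 0, 2 and 1. Fcer1g, the signalling chain shared by Fc receptors, was too low to be tested and was at 0.119, 0.0791 and 0.137 CPM in the wild types and at 0.262, 0.179, 0.354 and 0.487 CPM in the mutants. Fcgr2b, the inhibitory Fc receptor, held 1, 0 and 3 counts in the wild types and 4, 9, 22 and 16 in the mutants. Both were higher in every mutant library than in any wild-type library, in CPM for Fcer1g and in counts, not scaled for depth, for Fcgr2b. The 12 microglial markers, which come from cells that also express these receptors, had a summed level of 8.11 to 17.9 CPM in the wild types and 9.27 to 24.1 CPM in the mutants. None of the 9 tested among them was called, and their part in the levels of Fcgr3, Fcer1g and Fcgr2b was not tested.

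Of the genes called lower, Pea15a had the most reads over the libraries. It encodes a small phosphoprotein that binds ERK kinases and death effector domains, and was at 540.0, 562 and 622 CPM in the wild types and at 470.4, 366, 337 and 342 CPM in mutants 1 to 4, with no overlap. The fold was 0.664 (log2 -0.59, SE 0.13, edgeR adjusted p = 0.0251). The call held without mutant 1 and was lost without each of the other 6 libraries (up to 0.222), and in the first series alone the log2 fold change was -0.40 (adjusted p = 0.211) against -0.87 in the second, which has a single wild type.

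Nectin4 was lower from a low level. Nectin4, an adhesion molecule of epithelial junctions, was at 2.25, 2.53 and 3.34 CPM in the wild types and at 1.15, 0.984, 1.70 and 1.62 CPM in the mutants (fold 0.468, log2 -1.09, SE 0.18, edgeR adjusted p = 0.00801). The groups did not overlap. The call was lost without wild type 3 (0.0661). Levels here compare a gene with itself across mice and not with other genes.

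**Figure D1:**
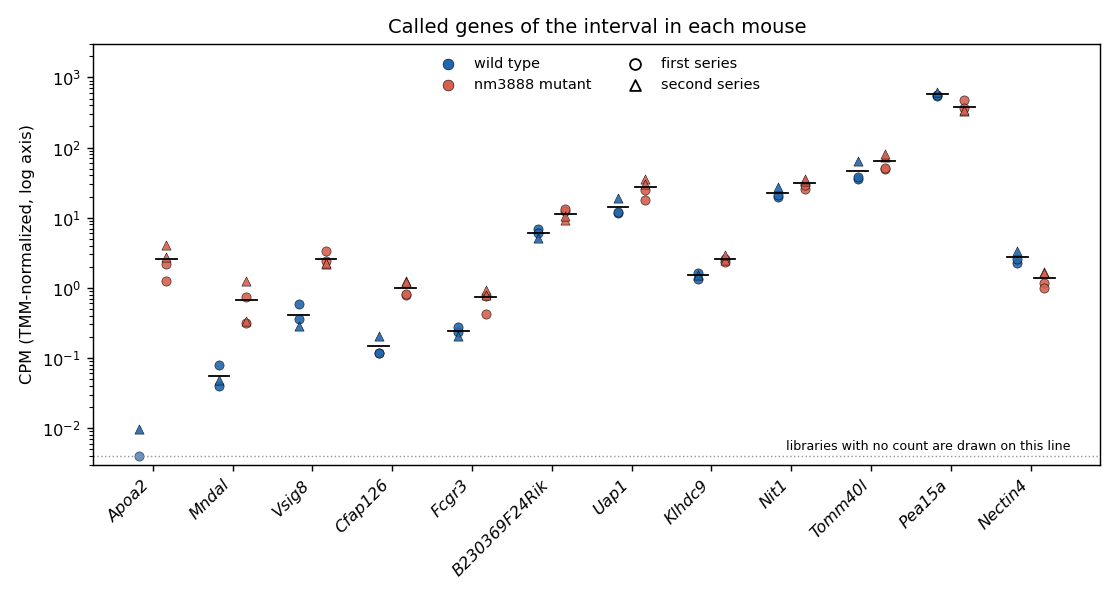
Level of 12 called genes in each mouse (CPM, log axis), with wild types in blue, mutants in red and group means as bars; circles are first-series mice and triangles second-series mice. Mutant and wild-type points are separate in all but Uap1, Nit1 and Tomm40l, where wild type 3 lies among the mutants, and 2 of the 3 Apoa2 wild-type libraries have no count.

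Of the 10 genes called higher, 7 had every mutant above every wild type, and of the 4 called lower all 4 had every mutant below. Their calls come from the same libraries, so this separation follows in part from the calls. Over the whole interval, 10 tested genes (12.5%) had every mutant above every wild type, against 5.16% of all genes tested, and 7 (8.75%) had every mutant below, against 8.92%. Among those not called were Dcaf8, F11r and Ackr1 on the higher side and Gm26620, Kmo and Gm38300 on the lower side, named here for that separation. Dcaf8, a substrate receptor of a ubiquitin ligase, had a log2 difference of 0.33 (edgeR adjusted p = 0.0505), and F11r, which encodes the junctional adhesion molecule JAM-A, had a log2 difference of 0.55 (0.0521). With a fold change of 2 or more as well as the adjusted p, 5 genes of the interval were called higher (Apoa2, Mndal, Vsig8, Cfap126 and Fcgr3), where 1.11% of all genes tested were. All 5 had a wild-type mean under 1 CPM. A gene this low in the wild types can pass the filter on low counts through the mutants, which favours higher over lower calls among such genes.

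Each mutant was then set against the wild types of its own library series, on a scale of log2(CPM + 0.1), which understates differences in low genes. All 10 genes called higher were positive in all 4 mutants, with medians of 0.78, 1.19, 1.23 and 1.29 in mutants 1 to 4. All 4 genes called lower were negative in all 4, with medians of -0.78, -0.89, -0.91 and -0.85. The genes not called had medians of -0.0068, 0.057, 0.14 and 0.11. The called genes were picked by a fit of these same libraries, so their shared sign follows in part from that choice. Mutants of 1 series share their wild types, and the second series has a single wild type, so these are 4 descriptions and not 4 separate comparisons.

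**Figure D2:**
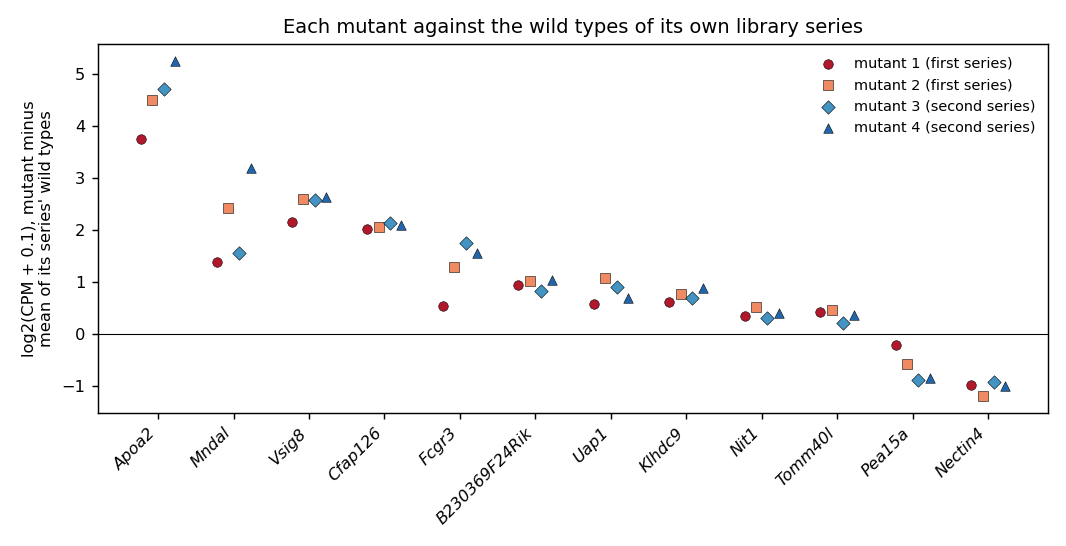
Difference of each mutant from the mean of its own series' wild types, on the log2(CPM + 0.1) scale, for 12 called genes, with 1 symbol per mutant. All points of the genes called higher lie above 0 and all points of the genes called lower lie below it, with the widest spreads among mutants in Apoa2, Mndal and Fcgr3.

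In the first series alone, with 2 mice of each genotype, 79 genes of the interval were tested, and 5 were called higher (Apoa2, Vsig8, Cfap126, B230369F24Rik and F11r) and 1 lower (Cep170). Of all genes tested there, 1.12% were called higher and 2.86% lower. In the second series alone, with 1 wild type and 2 mutants and the spread taken from the mutants, so that the single wild type is assumed to vary like them, 80 were tested, and 7 were called higher, among them Uap1, Fcgr3, Cfap126, Apoa2, Vsig8 and Mndal, and 2 lower (Pea15a and Kmo), against 3.27% and 2.84% of all genes. Of the 10 genes called higher over both series, all 9 tested in the first series and all 10 in the second kept their direction, as did all 4 called lower. The 2 series use different mice, but both were in the comparison that chose the interval. A test of whether the genotype effect differed between the series called no gene of the interval, with a lowest edgeR adjusted p of 0.328, where 0.0795% of all genes were called. At an unadjusted p under 0.05 it found 5, among them Gm2962, Rpl27-ps1, Tma7-ps and Gm37486, where 5.77% of all genes passed. No other tool was run for it.

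The genes called higher were spread unevenly along the interval. Fcgr3, Cfap126, Tomm40l, Apoa2, Nit1 and Klhdc9 lie within a stretch of 0.31 Mb, at chr1:171051174-171360798. This stretch holds 16 tested genes, of which these 6 were called higher and none lower, and the other 10 ranged from -0.33 to 0.83 on the log2 scale. Its ends were set at the first and last of these 6 genes after their calls were seen, so its density of called genes follows in part from how it was drawn. Pcp4l1, one of the genes left out by symbol, lies there too and was called higher (log2 1.12, SE 0.19, edgeR adjusted p = 0.00864). Genes not called stand between those called. Sdhc, a subunit of succinate dehydrogenase, lies between Cfap126 and Tomm40l and had a log2 difference of -0.33 (SE 0.14, adjusted p = 0.180), and Ufc1, the conjugating enzyme for the ubiquitin-like protein UFM1, lies between Apoa2 and Nit1 and had a log2 difference of 0.14 (SE 0.12, adjusted p = 0.526). Nectin4, which was called lower, starts just past Klhdc9.

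Before 174 Mb, 9 of 50 tested genes were called higher and 2 lower, with a median log2 fold change of 0.27. From 174 Mb on, 1 of 30 was called higher (B230369F24Rik) and 2 lower, with a median of 0.019. The 1 Mb bin from 171 Mb held 6 of the 10 genes called higher among 23 tested, and the bins from 170, 172, 173 and 178 Mb held 1 each. The bin from 173 Mb had 4 tested genes. The split at 174 Mb, the first 1 Mb bin without a gene called higher, was placed after the values were seen.

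**Figure D3:**
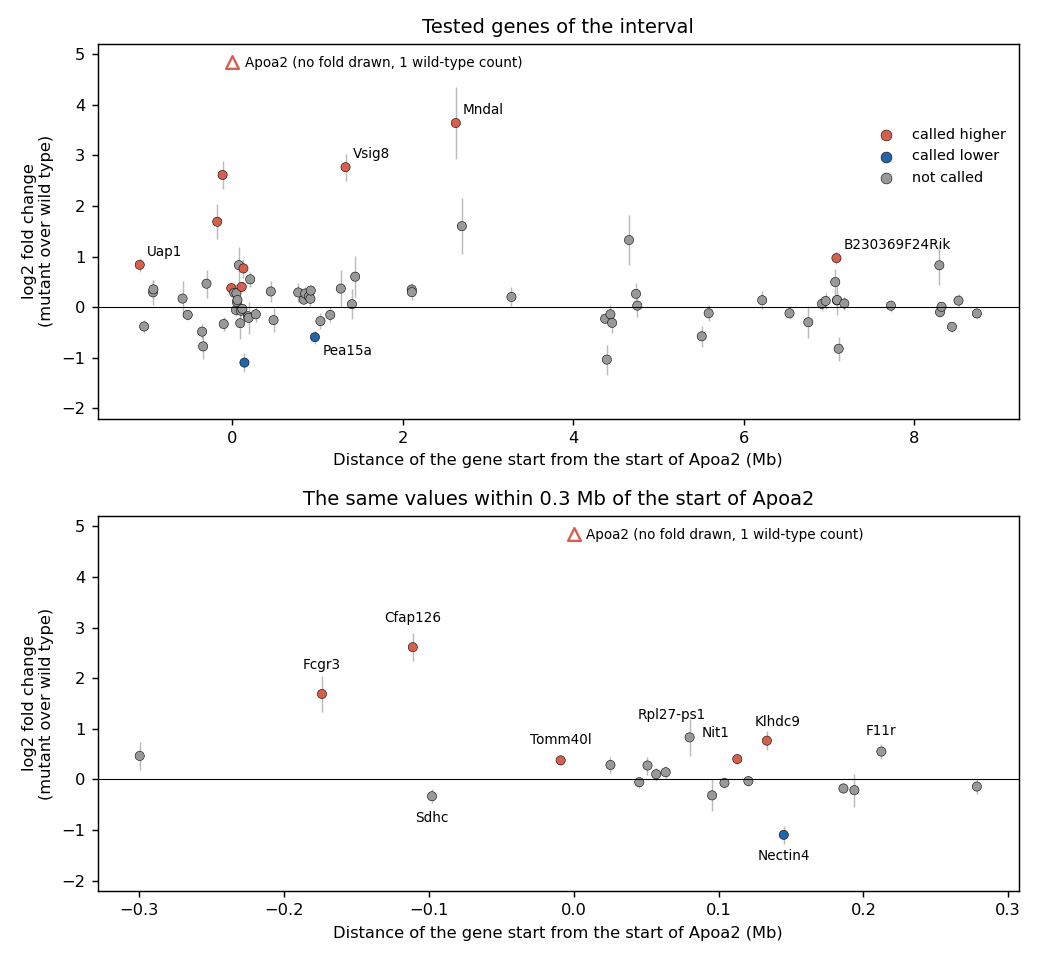
Log2 fold change of the tested genes, without the few not reported by name, against the distance of their start from that of Apoa2 (Mb), with bars of 1 SE, over the whole interval (top) and within 0.3 Mb (bottom), and with colours for genes called higher, called lower and not called. Red points crowd around Apoa2 among grey ones, and only B230369F24Rik is red at more than 3 Mb from it, while Apoa2 itself is drawn as an open triangle at no set height because its wild types held 1 count.

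Of the 10 genes, 6 had another gene called higher within 0.5 Mb, as did 156 of the 455 genes called higher across the genome (34.3%). Neighbouring tested genes moved in the same direction in 44 of 79 pairs (55.7%), where 51.2% of 17599 neighbouring pairs did over all genes. Neighbours that were both called higher numbered 2 pairs in the interval and 27 pairs over all genes.

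In windows of 10 Mb with 20 or more tested genes, of which there were 254, the median share called higher was 2.25% and the 95th percentile was 6.55%. Counting every tested gene of the interval, those left out by symbol included, 11 of 87 (12.6%) were called higher, the second highest share. The highest was 9 of 64 (14.1%) at chromosome 13 from 20 Mb, and the third was 5 of 46 (10.9%) at chromosome 6 from 130 Mb. The window of Rreb1 itself had 2 of 49 (4.08%). In windows of 5 Mb, the first part of the interval, from 170 Mb, had 10 of 57 genes called higher (17.5%), the highest share of 357 windows, and the second part, from 175 Mb, had 1 of 30 (3.33%), rank 121. The interval was chosen on this same contrast, so its ranks are a description and not a test.

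**Figure D4:**
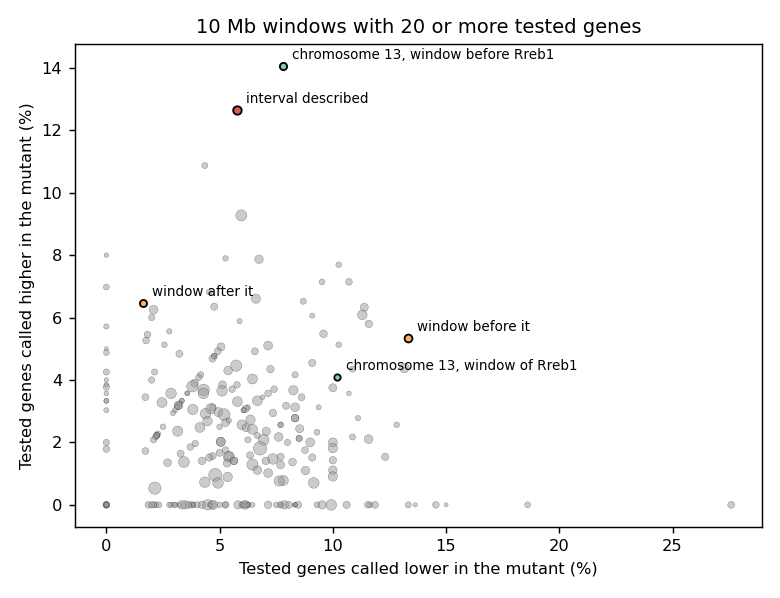
Share of tested genes called lower (x axis, %) and called higher (y axis, %) in the mutant in each of 254 windows of 10 Mb, with larger points for more genes. The interval described lies at 5.75% lower and 12.6% higher, with 1 window of chromosome 13 above it and the windows before and after it at 5.33% and 6.45% higher.

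In the 10 Mb before the interval, 4 of 75 tested genes were called higher (5.33%) and 10 lower (13.3%), with a median log2 fold change of -0.024 and 40.0% of values positive. In the 10 Mb after it, 4 of 62 were called higher (6.45%) and 1 lower (1.61%), and the median of 0.17 and the positive share of 64.5% were above those of the interval itself. Every mutant was above every wild type in 3 of the 75 genes of the first flank and in 8 of the 62 of the second. Over the interval this was 10 of 80, and over all genes tested 5.16%. Every mutant was below every wild type in 13 genes of the first flank and in 4 of the second. The interval had 7 such genes, and the share over all genes tested was 8.92%. Just inside its ends, Uap1 was called, and Uhmk1 (log2 -0.38, SE 0.12), Ahctf1 (0.13, SE 0.13) and Cdc42bpa (-0.12, SE 0.10) were not. Just outside, Hsd17b7, a sterol biosynthesis enzyme gene, was called lower (log2 -0.64, SE 0.13, edgeR adjusted p = 0.0180) and Psen2, which encodes presenilin 2, was called higher (0.52, SE 0.12, adjusted p = 0.0332), while Ddr2 (0.28, SE 0.27) and Coq8a (0.24, SE 0.09) were not called. Called genes were thus present on both sides of the interval.

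The sequence just upstream of the start of 6 of the genes called higher is shown to compare their density of CG dinucleotides, since CG-rich sequence is typical of promoters of widely expressed genes. Each run is the 250 bases before the RefSeq start on the strand of the gene, 5′ to 3′, from build GRCm38.p6 (mm10), in lower case with each CG in capitals. They are at chr1:171224804-171225053 (+) for Apoa2, chr1:171113736-171113985 (+) for Cfap126, chr1:172555688-172555937 (+) for Vsig8, chr1:171360799-171361048 (-) for Klhdc9, chr1:170174965-170175214 (-) for Uap1 and chr1:171345646-171345895 (-) for Nit1.
Apoa2: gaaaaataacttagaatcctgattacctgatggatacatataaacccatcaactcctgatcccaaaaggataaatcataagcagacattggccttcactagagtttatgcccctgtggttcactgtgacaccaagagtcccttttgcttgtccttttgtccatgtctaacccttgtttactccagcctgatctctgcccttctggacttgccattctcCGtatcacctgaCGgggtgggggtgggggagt
Cfap126: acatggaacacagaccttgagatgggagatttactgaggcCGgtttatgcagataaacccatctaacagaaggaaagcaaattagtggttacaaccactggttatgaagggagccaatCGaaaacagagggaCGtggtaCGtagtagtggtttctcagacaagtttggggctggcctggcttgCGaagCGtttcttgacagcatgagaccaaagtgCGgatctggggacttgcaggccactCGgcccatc
Vsig8: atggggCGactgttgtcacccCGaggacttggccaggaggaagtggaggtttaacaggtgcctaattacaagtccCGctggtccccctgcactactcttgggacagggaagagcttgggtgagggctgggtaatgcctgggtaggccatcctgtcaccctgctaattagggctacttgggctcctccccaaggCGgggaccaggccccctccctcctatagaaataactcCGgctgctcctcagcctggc
Klhdc9: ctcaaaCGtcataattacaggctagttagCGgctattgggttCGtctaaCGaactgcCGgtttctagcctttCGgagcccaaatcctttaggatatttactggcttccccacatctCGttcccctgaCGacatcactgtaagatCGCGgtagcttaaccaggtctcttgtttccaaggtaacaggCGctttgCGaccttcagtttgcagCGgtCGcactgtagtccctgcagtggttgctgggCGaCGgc
Uap1: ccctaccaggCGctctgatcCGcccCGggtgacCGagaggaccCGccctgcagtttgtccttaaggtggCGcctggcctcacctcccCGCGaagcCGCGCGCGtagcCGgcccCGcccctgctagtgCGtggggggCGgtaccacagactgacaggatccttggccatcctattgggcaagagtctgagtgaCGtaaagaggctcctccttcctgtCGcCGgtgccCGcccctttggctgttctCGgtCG
Nit1: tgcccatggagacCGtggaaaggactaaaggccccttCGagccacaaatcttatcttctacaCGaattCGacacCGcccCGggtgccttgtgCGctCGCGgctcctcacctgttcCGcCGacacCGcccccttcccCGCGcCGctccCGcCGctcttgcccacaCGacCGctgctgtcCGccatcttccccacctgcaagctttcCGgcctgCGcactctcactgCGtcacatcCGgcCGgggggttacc
RefSeq gave a sequence for 57 of the 84 genes. Apoa2 has 2 CG in this window, Vsig8 5, Cfap126 8, Klhdc9 16, Uap1 22 and Nit1 25. Of the other genes called higher, Mndal has 1 and Fcgr3 4, in a window that for Fcgr3 lies 5532 bases from the start in the annotation used for counting. The median was 6.5 over the 8 called-higher genes matched, 13 over the matched genes not called, 11 over the 57 and 6 over all 32851 promoters. The letters CAGATG, on either strand, were searched as a form of the E-box that NEUROD1, a basic helix-loop-helix factor, binds. They occur in 14.4% of all promoters and in 6 of the 57 (10.5%), of which Mndal was the only called gene. A match is a description of these letters and not of binding.

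The genes were also grouped by function, and the counts below are of members tested. Over all genes tested, 2.58% were called higher and 5.95% lower. The lists divide the calls of an interval chosen by its results, so nothing is read from their counts. Among the mitochondrial and peroxisomal proteins, 1 of 9 was called higher (Tomm40l) and none lower, with a median log2 fold change of -0.098. Fh1, which encodes fumarate hydratase, was at 80.1, 88.0 and 144 CPM in the wild types and at 72.2, 72.04, 125 and 119 CPM in the mutants (log2 -0.23, SE 0.08, edgeR adjusted p = 0.140), lower in each mutant than in every wild type of its series. Pex19, an import factor for peroxisomal membrane proteins, had a log2 difference of 0.21 (SE 0.10, adjusted p = 0.250). Kmo, the kynurenine hydroxylase of the mitochondrial outer membrane, named for its size, had a log2 difference of -1.04 (SE 0.30, adjusted p = 0.0691), with -0.59 in the first series and -1.60 in the second.

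Among genes of the secretory pathway, 2 of 9 were called higher (Uap1 and Apoa2, a protein of plasma lipoproteins) and none lower, with a median of 0.0079. Sccpdh, a putative oxidoreductase, had a log2 difference of -0.39 (SE 0.10, edgeR adjusted p = 0.0506), just above the threshold. Copa, the alpha subunit of the COPI coat, had a log2 difference of 0.27 (SE 0.14, adjusted p = 0.283), and Atf6, a sensor of protein folding in the endoplasmic reticulum, had a log2 difference of -0.15 (SE 0.10, adjusted p = 0.380). In the list of ubiquitin-like conjugation, protein folding and degradation, 2 of 9 were called higher (Klhdc9 and Nit1), neither of them a known conjugating enzyme, and the median was 0.14. Adamts4, a secreted protease of the extracellular matrix, had a log2 difference of 0.29 (SE 0.16, adjusted p = 0.337).

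Among genes of adhesion, polarity and ion pumping, 1 of 9 was called higher (Vsig8) and 1 lower (Nectin4), with a median of 0.29. Cadm3, a synaptic adhesion molecule, had a log2 difference of 0.30 (SE 0.15, adjusted p = 0.270), and Opn3, a non-visual opsin, had a log2 difference of -0.14 (SE 0.18, adjusted p = 0.692).

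Among kinases, phosphatases and related regulators, 3 of 11 were called lower, Pea15a among them, and none higher, with a median of -0.31. Uhmk1, a serine/threonine kinase, was at 614, 595 and 429 CPM in the wild types and at 401, 562, 323 and 301 CPM in the mutants (log2 -0.38, SE 0.12, edgeR adjusted p = 0.0984), below the wild types of its own series in each mutant. Chml, an escort protein for Rab GTPases that overlaps Opn3 on the same strand, had a log2 difference of -0.31 (SE 0.20, adjusted p = 0.404). Cdc42bpa, a kinase downstream of CDC42, ranged from 521 to 624 CPM over the 7 libraries.

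Among genes of transcription, RNA processing, the nucleus and the centrosome, 1 of 14 was called higher (Cfap126, a ciliary gene) and none lower, with a median of 0.051. Hnrnpu (log2 0.14, SE 0.15), Zbtb18 (0.14, SE 0.18) and Usf1 (-0.18, SE 0.10) were not called. In the list of Fc and SLAM receptors and other immune genes, 3 of 25 genes reached the count minimum and 2 were tested, of which Fcgr3 was called higher. Ackr1, an atypical chemokine receptor gene whose end overlaps Cadm3 on the same strand, had a log2 difference of 0.35 (SE 0.12, adjusted p = 0.121). Of the 18 genes in the IFI200 list, 2 were tested and Mndal was called.

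The pseudogenes of the interval differed in level between the library series, in both genotypes. Their mean level was over 10-fold higher in the first series, whose alignments came from a Bowtie2 folder, than in the second, from a STAR folder, in 9 of 10, with ratios of 14.1 to 996.5. Gm8010, for example, was at 38.4, 44.9, 42.5 and 42.4 CPM in the first series and at 0.0488, 0.0842 and 0.0664 CPM in the second. Rbm8a2, annotated as protein coding, did the same (ratio 95.7), while the median ratio of the members that are not pseudogenes was 0.866. None of the 9 pseudogenes tested was called. The aligner, the mice and the depth differ between the series in both genotypes and cannot be told apart. Sex differs between the series only among the mutants, and its part was not tested.

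**Figure D5:**
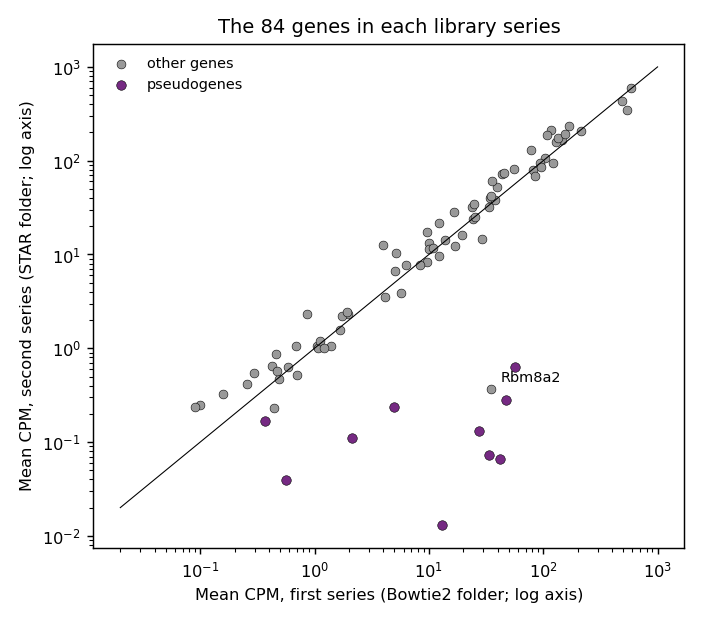
Mean level of the 84 genes in the first library series (x axis) and the second (y axis), in CPM on log axes, with the line of equality, pseudogenes in purple and other genes in grey. Of the 10 pseudogenes 9 lie far below the line, as does Rbm8a2, and the other genes follow it.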

How the data were processed

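Sequencing libraries of ribosome-bound RNA from 3 wild-type and 4 nm3888-/- cerebella were analysed. The values are raw counts of read pairs per gene as deposited, with no normalization. Per the methods and file headers, the authors trimmed reads and removed duplicates with fastp, aligned them to mm10, and counted them with featureCounts 2.0.1 on GENCODE M25, as reverse-stranded pairs whose ends both mapped. The headers place first-series alignments under a Bowtie2 folder and second-series ones under STAR, where the methods name Bowtie2. The study compared genotypes with DESeq2. Of 55401 genes, 55141 (99.53%) matched a symbol.

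Genotypes were compared with edgeR 4.0.16 (R 4.3.3, limma 3.58.1; quasi-likelihood test, TMM normalization, library series as a term, filterByExpr) over all 17621 genes passing the filter, and genes with a Benjamini-Hochberg adjusted p under 0.05 were called. SEs were derived from each log2 fold change and F statistic. DESeq2 1.42.0 and other filters, scalings, terms and subsets of libraries were alternatives. Deviations of same-numbered wild-type and mutant libraries from their group means correlated at 0.905, 0.947 and 0.955, but so did other libraries of the same series (0.922 to 0.958). The correlation follows the series. Centred within series and genotype it was -0.002 in the first series, a value that its 2 pairs share by construction. Genes named are all called members, up to 3 further members per function list and the 5 members overall by mean CPM, the 2 genes inside and outside each end, and Rreb1; any other gene was chosen after its values were seen. Members, lists and the interval were chosen with earlier results of these data known. A few genes of the interval are counted in the totals but not reported here by name. Sequences are from RefSeq. Replicates are separate mice.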

Additional observations from a re-analysis of the deposited data

How the results depend on the processing

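Across 18 alternative fits, the 211 values of the 12 called genes described kept their direction, and 138 kept their call. Apoa2 was called in all 18, Vsig8 in 17, Cfap126 in 16 of 17, B230369F24Rik in 15, Uap1 in 14, Nectin4 in 13, Mndal in 10 of 15, Fcgr3 in 9 of 17, Pea15a in 8, Nit1 in 7, Tomm40l in 6 and Klhdc9 in 5. The cause of these changes was not tested, except that fewer samples enter the fits within 1 series or without 1 library.

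Counts of all genes called higher and lower, then those of the interval, and the interval's median log2 fold change, moved as follows from 455, 1049, 10, 4 and 0.13. DESeq2 called 794 genes higher, and 12 and 6 in the interval. With no filter on low counts, 731 genes were higher, and 8 of the interval were lower. The first series alone gave 191, 488, 5, 1 and 0.0531. The second series alone gave 493 genes lower, 2 of them in the interval, and a median of 0.2318. With no batch term they were 58, 251, 3, 0 and 0.0605, and with sex in place of the series 17, 85, 1 (Apoa2), 0 and 0.0213. The replicate block gave 241, 571, 6 and 2. Without 1 library in turn, the counts ranged from 173 to 434 and from 426 to 991 over all genes, from 4 to 12 and from 0 to 5 in the interval, and the median from 0.0516 to 0.1512. The lowest counts came without wild type 3, where Apoa2, Vsig8, Cfap126 and B230369F24Rik were called higher. In that fit the genotype term rests on the first series, so it largely repeats the fit of that series alone. The share called higher was 3.33% in the second of the interval's 5 Mb windows.

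Genes that were not called turned in sign as follows. With sex as the term, Copa was at -0.0667, Ufc1 at -0.0908 and Hnrnpu at -0.0473. In the second series alone, Ufc1 was at -0.0023 and Opn3 at 0.0823. In the first, Hnrnpu was at -0.0027, Zbtb18 at -0.0749 and Ddr2 at -0.0415. Without wild type 3, Hnrnpu was at -0.0053, Zbtb18 at -0.0775 and Ddr2 at -0.0424. Opn3 was at 0.0265 without mutant 1 and at 0.0419 without wild type 2, and Rreb1 was at -0.0309 without mutant 3. The other end of the range without 1 library was 0.2868 for Hnrnpu, 0.296 for Zbtb18, 0.4729 for Ddr2, -0.2863 for Opn3 and 0.3587 for Rreb1. Depth limits the low genes most, since 14 tested genes of the interval had a wild-type mean under 1 CPM.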
